A study of Mus musculus with 6 samples.

Results

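The genes described here are the 10 members of the Myc, Max and Mxd network of transcription factors, chosen by symbol: Myc, Mycn, Mycl1, Max, Mxd1, Mxd3, Mxd4, Mxi1, Mnt and Mga. All 10 were found among the 21786 gene symbols listed for every library, and all 10 passed the filter on low counts. Polyadenylated RNA of whole testes was sequenced in 6 libraries. The first 3 came from Stra8-deficient males (Stra8 -/-) aged 1 year, whose testes were grossly enlarged and, per the labels, made up for the most part of cells resembling type A spermatogonia. The other 3 came from Stra8 +/+ males aged 2 to 4 months with normal testes. All mice had a C57BL/6 background, and the labels describe separate males. The allele is present in every cell of the animal and not only in germ cells, and since age and testis enlargement follow genotype, the effects of genotype, age and enlargement cannot be told apart. Libraries are numbered 1 to 3 within each genotype, and these numbers were not taken to pair mice.

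Myc family proteins bind DNA at the E-box CACGTG as pairs with the small protein Max and activate genes of growth, ribosome production and the cell cycle. The Mxd proteins, Mxi1 and Mnt compete for Max, bind the same E-box and repress by recruiting the Sin3 corepressor. Several of them are best known from cells that leave the cycle to differentiate. Mnt, however, is broadly expressed, and Mxd3 is known from proliferating cells. Mga, a very large protein with both a T-box and a Max-binding domain, is the scaffold of a variant Polycomb complex that in mouse embryonic stem (ES) cells represses meiotic and other germ line genes. In the mouse testis Mycn is known as a factor induced by GDNF in cultured spermatogonial stem cells.

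Promoter windows from RefSeq, 250 bases before to 50 after a gene's start on GRCm38.p6, were found for 9 of the 10 members. Myc had no entry. The E-box CACGTG, which reads the same on both strands, occurred in the windows of 3 of these 9 genes (33.3%), and in 8.09% of all 27025 genes with a window. The 3 genes were Max, Mnt and Mxd4. The E2F-type motif TTTNGCGC, searched on both strands and chosen after the promoters were seen, occurred in the window of Mycn only, and in 1.57% of all genes with a window. In Mycn it matched at 3 places, of which the first 2 overlap each other. The windows of these 4 genes are shown, up to 20 bases after the start, because they hold the motifs of the network's own binding site and of E2F factors within the network's own genes. Capitals mark CACGTG in Max, Mnt and Mxd4 and TTTNGCGC in Mycn, each read 5′ to 3′ on the gene's strand.
Mycn (chr12:12941817-12942086, minus strand): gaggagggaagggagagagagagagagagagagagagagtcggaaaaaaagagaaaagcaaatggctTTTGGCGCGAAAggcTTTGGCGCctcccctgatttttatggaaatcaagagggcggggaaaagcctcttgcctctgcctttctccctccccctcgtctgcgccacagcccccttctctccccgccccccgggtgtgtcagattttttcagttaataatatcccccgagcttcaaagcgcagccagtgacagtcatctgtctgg
Max (chr12:76962229-76962498, minus strand): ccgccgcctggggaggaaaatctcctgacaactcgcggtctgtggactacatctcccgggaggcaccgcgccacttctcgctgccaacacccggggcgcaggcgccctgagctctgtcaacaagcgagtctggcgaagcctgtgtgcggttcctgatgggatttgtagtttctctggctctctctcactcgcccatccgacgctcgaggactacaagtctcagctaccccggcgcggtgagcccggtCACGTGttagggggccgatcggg
Mnt (chr11:74830674-74830943, plus strand): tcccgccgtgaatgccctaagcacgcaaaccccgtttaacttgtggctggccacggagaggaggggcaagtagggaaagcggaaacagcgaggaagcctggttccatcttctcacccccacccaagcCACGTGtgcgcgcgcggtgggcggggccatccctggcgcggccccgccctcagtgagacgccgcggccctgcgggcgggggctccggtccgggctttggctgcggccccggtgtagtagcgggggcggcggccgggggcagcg
Mxd4 (chr5:34187691-34187960, minus strand): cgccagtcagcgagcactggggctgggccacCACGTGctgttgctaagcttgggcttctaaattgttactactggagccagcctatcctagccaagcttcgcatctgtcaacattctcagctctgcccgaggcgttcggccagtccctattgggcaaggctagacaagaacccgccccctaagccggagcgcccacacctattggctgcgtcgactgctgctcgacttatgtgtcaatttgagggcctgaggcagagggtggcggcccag
The E-box began 3 bases before the RefSeq start in Max (position -3), at -123 in Mnt and at -219 in Mxd4. The windows of Mycl1 (RefSeq symbol Mycl), Mxd1, Mxd3, Mxi1 and Mga held neither motif. A match describes letters in a window and says nothing of binding in these testes.

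Levels are in CPM, the usual read count scaled to library size, after TMM correction and with the SD over 3 libraries. Differences are given as log2 fold changes with an approximate SE, where a positive value means a higher level in Stra8-deficient testes. Adjusted p-values come from edgeR's quasi-likelihood test with Benjamini-Hochberg adjustment over 15018 genes. A gene is called higher or lower at an adjusted p under 0.05. The Stra8-deficient libraries held 7883466 to 12425689 gene reads and the wild-type ones 6733128 to 8937224. Stra8 itself was read in every library, at 18.1 to 23.7 CPM where the gene is mutant and 17.1 to 18.7 CPM in wild type. Its counts sum all exons, so they do not check the labels. All 12 spermatogonial markers were higher and summed to 2976 to 4176 CPM against 207 to 245 CPM in wild type. All 10 spermatid markers were lower (6.67 to 13.8 against 22582 to 26009 CPM, Catsper1 at 0 reads in the Stra8-deficient libraries), as were 8 of 10 spermatocyte markers (235 to 267 against 10173 to 10955 CPM) and 8 of 9 Sertoli cell markers (93.0 to 678 against 1656 to 1854 CPM). None of 7 Leydig cell markers was called, and their sums were 19.1 to 2709 CPM in the Stra8-deficient libraries, against 817 to 1288 CPM in wild type. Of 9 macrophage markers 7 were called higher and 1, Aif1, lower. They summed to 371 to 1178 CPM in the Stra8-deficient libraries, against 392 to 454 CPM in wild type, where Aif1 alone averaged 336 CPM, against 10.9 CPM in the Stra8-deficient libraries. Both sums were lowest in the second and highest in the third Stra8-deficient library. In whole testes, fewer cells of a type and less RNA per cell cannot be told apart, and the part of these cell types in the results below was not tested.

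Of the 10 network genes, 5 were called higher in Stra8-deficient testes (Mycn, Mycl1, Max, Mxd3 and Mga), 4 were called lower (Mxd1, Mxd4, Mxi1 and Mnt) and Myc was not called. Among all 15018 genes tested, 75.8% were called, 39.0% higher and 36.7% lower, so that 9 calls among 10 genes are close to the background and the count is no result about the network. Among the called genes the activators Mycn and Mycl1 and the shared partner Max were higher. Of the repressors Mxd1, Mxd4, Mxi1 and Mnt were lower, while Mxd3 was higher. Mga, the scaffold of a repressive complex, was higher too. With library size alone in place of TMM the network split was 6 higher and 2 lower. That scaling puts the median change over all tested genes at 0.73, against 0.11 with TMM, and 63.6% of all calls on the higher side, against 51.5%. The genotypes did not overlap in any of the 10 genes, Myc included, and the same was true of 80.2% of all tested genes.

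**Figure D1:**
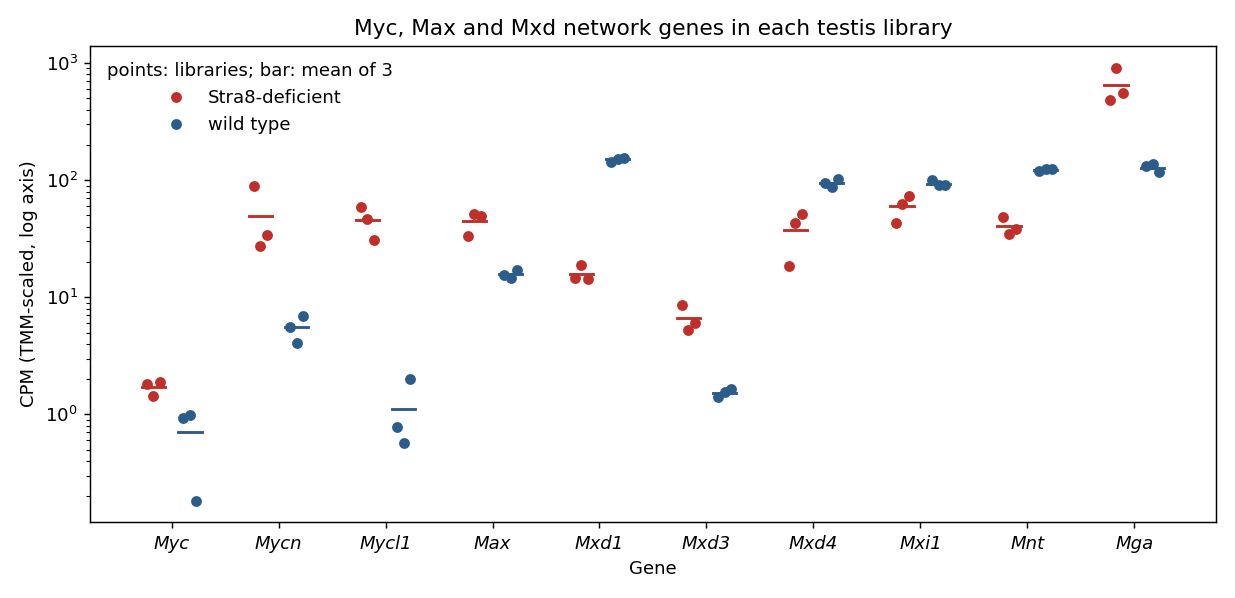
CPM (log axis) of the 10 network genes in each library, Stra8-deficient in red left of wild type in blue. Points are libraries and bars the mean of 3. No gene's groups overlap, and the Stra8-deficient points of Mycn run from 27.2 to 88.5 CPM.

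Among the Myc class, the activators, Mycn and Mycl1 carried the reads and Myc was scarce. Mycn had 88.5, 27.2 and 34.1 CPM in the 3 Stra8-deficient libraries, against 5.62, 4.09 and 6.97 CPM in the wild-type libraries. The first Stra8-deficient testis stood well above the other 2, and the lowest Stra8-deficient value was still several times the highest wild-type value. The log2 fold change of Mycn was 3.17 ± 0.48 (9.01-fold, edgeR, adjusted p = 0.000256), and it was 2.44 without the first Stra8-deficient library (edgeR, adjusted p = 0.000183). Mycl1, which encodes L-Myc, known from small cell lung cancer and dendritic cells, had 59.2, 46.7 and 31.1 CPM in the Stra8-deficient libraries, against 0.781, 0.565 and 2.02 CPM in the wild-type libraries. It was nearly unread in normal testis, with 20 reads over the 3 wild-type libraries against 1544 over the Stra8-deficient ones. Its log2 fold change of 5.39 ± 0.46 (41.8-fold, edgeR, adjusted p = 6.14e-06) was the largest in the network under each scaling and test tried. With single libraries left out it ranged from 5.03 without the second wild-type library (edgeR, adjusted p = 4.35e-05) to 6.05 without the third (edgeR, adjusted p = 1.86e-05).

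Myc itself was read 18, 15 and 28 times in the Stra8-deficient libraries and 6, 7 and 1 times in the wild-type libraries. These counts correspond to 1.81, 1.43 and 1.88 CPM against 0.937, 0.988 and 0.183 CPM. Pooled over libraries, counting error alone gives 95% exact Poisson intervals of 1.32 to 2.21 CPM for the mutant and 0.404 to 1.24 CPM for wild type. The log2 fold change was 1.22 ± 0.52 and was not called (edgeR, adjusted p = 0.0581). The gene was called higher with upper-quartile factors (1.49, edgeR, adjusted p = 0.0248) and with library size alone (1.83, edgeR, adjusted p = 0.00909). A pair of related genes outside the network's symbol list was looked at after its values were seen. Bmyc, which encodes a protein like the first part of Myc without its DNA-binding end, was at 4.32 ± 1.58 CPM in Stra8-deficient and 5.14 ± 0.93 CPM in wild-type testes and was not called (log2 fold change -0.24 ± 0.38, edgeR, adjusted p = 0.579). Mycs, an intronless Myc copy on the X chromosome, had 0 reads in all 3 Stra8-deficient libraries and 2, 6 and 6 reads in the wild-type ones, too few to be tested. Reads of such near-identical family members are uncertain where the counting splits them.

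Max, the shared partner, had 33.3, 51.3 and 49.3 CPM in the Stra8-deficient libraries, against 15.6, 14.7 and 17.1 CPM in the wild-type libraries. All 3 Stra8-deficient testes were higher, the first least so, and it was in that library that Mycn was highest. The log2 fold change was 1.50 ± 0.23 (2.83-fold, edgeR, adjusted p = 0.000262).

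The Mxd class held genes of both directions. Mxd1, the founding Mxd repressor, first named Mad1, had 14.6, 18.8 and 14.5 CPM in the Stra8-deficient libraries, against 144, 151 and 156 CPM in the wild-type libraries. It fell more than any other member, and the 3 libraries of either genotype lay close together (log2 fold change -3.24 ± 0.18, 9.44-fold lower, edgeR, adjusted p = 4.71e-07). Spermatid markers were lower in the same libraries, at a summed 6.67 to 13.8 CPM against 22582 to 26009 CPM, and their part in the lower level of Mxd1 was not tested. Mxd3, which in mouse is known from proliferating cells in S phase, had 8.63, 5.24 and 6.03 CPM in the Stra8-deficient libraries, against 1.41, 1.55 and 1.65 CPM in the wild-type libraries. It was the only Mxd gene called higher (2.10 ± 0.37, edgeR, adjusted p = 0.000714), from 86, 55 and 90 reads against 9, 11 and 9. The GENCODE annotation has the gene Prelid1 overlapping Mxd3 on the opposite strand, and strand handling of the counts is not given, so that its value is less certain.

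Mxd4 and Mxi1 fell less. Mxd4 had 18.6, 42.8 and 51.0 CPM in the Stra8-deficient libraries, against 94.9, 88.1 and 101 CPM in the wild-type libraries. The first Stra8-deficient library was lowest, and the gene fell by 1.34 ± 0.33 on the log2 scale (edgeR, adjusted p = 0.00466). With library size alone the value was -0.73 and was not called (edgeR, adjusted p = 0.0589). Mxi1, also a Max-binding repressor, had 43.5, 62.8 and 73.3 CPM in the Stra8-deficient libraries, against 99.8, 90.2 and 91.2 CPM in the wild-type libraries. The first Stra8-deficient library was again lowest. The log2 fold change of -0.65 ± 0.21 (edgeR, adjusted p = 0.0198) was the smallest in the network, and its call was lost with upper-quartile factors (-0.37), with library size alone (-0.03), without the first (-0.61) or without the third wild-type library (-0.68). Max, Mxd1, Mxd4 and Mxi1 also overlap other annotated genes.

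Mnt, a broadly expressed repressor that pairs with Max and offsets Myc, had 48.5, 34.6 and 38.2 CPM in the Stra8-deficient libraries, against 119, 124 and 125 CPM in the wild-type libraries. The genotypes were far apart relative to their spread, with a log2 fold change of -1.60 ± 0.18 (3.04-fold lower, edgeR, adjusted p = 3.81e-05). Mga was the most read member in every Stra8-deficient library, with 483, 916 and 557 CPM, against 131, 136 and 117 CPM in the wild-type libraries. The second Stra8-deficient testis was highest, and the log2 fold change was 2.35 ± 0.26 (5.08-fold, edgeR, adjusted p = 3.64e-05). A splice form of Mga restricted to germ cells is known in mouse, and counts per gene do not separate it from the full form.

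**Figure D2:**
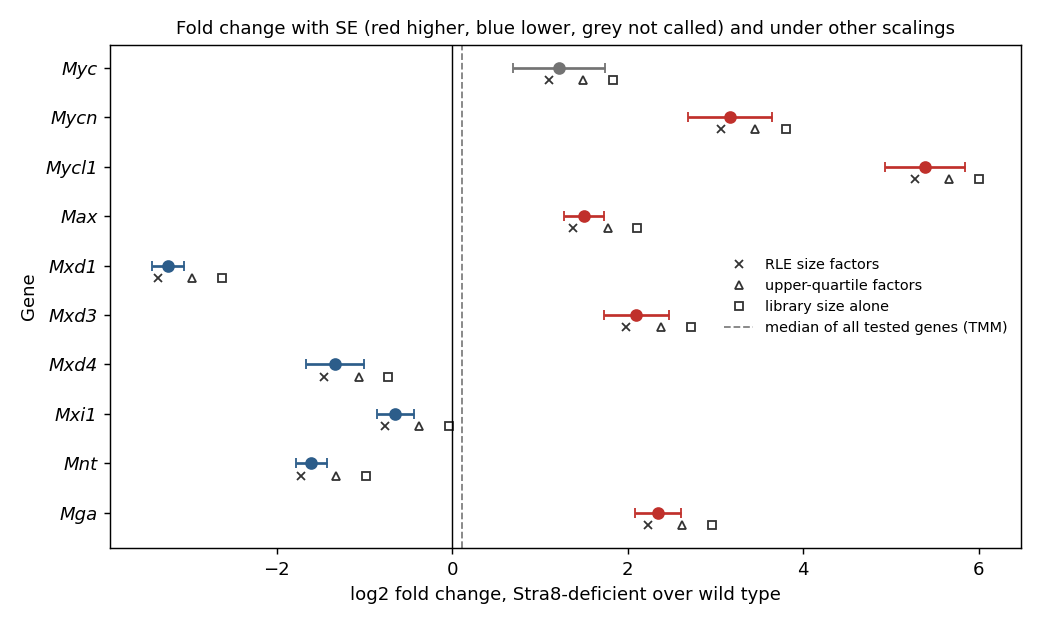
Log2 fold change, Stra8-deficient over wild type, of the 10 network genes (points, bars are SE), with the values under 3 other scalings below each point and the median of all tested genes (0.11) as a dashed line. Mycl1 (5.39) and Mxd1 (-3.24) lie at the ends, and with library size alone Mxi1 sits next to 0 (-0.03).

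The authors' deposited table gives the same direction for each of the 10 genes. In the authors' deposited table the log2 ratio was 5.41 for Mycl1, 3.17 for Mycn, 2.35 for Mga and -3.24 for Mxd1. For Myc the authors' deposited table gives 1.23 with a corrected p of 0.0289, and for Mxi1 -0.65 with a corrected p of 0.0636, so that both genes fall on the other side of 0.05 there than in the edgeR quasi-likelihood test.

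To set the members side by side, CPM were divided by exon length in kilobases. On this scale the wild-type order of mean levels was Mxd1 at 32.2 ± 1.27 CPM per kb, Mnt at 26.8 ± 0.702, Mxd4 at 24.4 ± 1.72, Mxi1 at 14.1 ± 0.791, Mga at 9.20 ± 0.719, Max at 8.06 ± 0.611, Mycn at 1.98 ± 0.513, Mxd3 at 1.16 ± 0.0932, Mycl1 at 0.307 ± 0.214 and Myc at 0.287 ± 0.184. Neighbours whose libraries overlapped were Mnt and Mxd4, Mga and Max, and Mycl1 and Myc. In Stra8-deficient testes the order of means was Mga at 46.8 ± 16.6 CPM per kb, Max at 22.8 ± 5.02, Mycn at 17.8 ± 12.0, Mycl1 at 12.5 ± 3.86, Mxd4 at 9.65 ± 4.35, Mxi1 at 8.99 ± 2.27, Mnt at 8.81 ± 1.57, Mxd3 (6.51, 3.95 and 4.54 in the 3 libraries), Mxd1 at 3.41 ± 0.527 and Myc at 0.696 ± 0.0982. There, the libraries of all neighbours from Max down to Mnt overlapped, as did those of Mxd3 and Mxd1. Mga and Max, Mnt and Mxd3, and Mxd1 and Myc did not overlap. Mxd1 was thus first in wild type and next to last in Stra8-deficient testes.

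The Myc class summed to more and the Mxd class to less in every Stra8-deficient library than in any wild-type library. Myc, Mycn and Mycl1 together reached 48.5, 23.0 and 21.4 CPM per kb in the Stra8-deficient libraries, against 2.60, 2.02 and 3.11 in the wild-type libraries. Mxd1, Mxd3, Mxd4 and Mxi1 together reached 20.9, 28.4 and 31.8 CPM per kb in the Stra8-deficient libraries, against 71.4, 69.8 and 74.5 in the wild-type libraries. The Myc class to Mxd class ratio was therefore 2.32, 0.810 and 0.674 in the Stra8-deficient libraries, against 0.0364, 0.0289 and 0.0418 in the wild-type libraries. The first Stra8-deficient testis was the 1 library with more Myc-class than Mxd-class mRNA per kilobase. These sums describe the members and carry no test.

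Within the Myc class, Mycl1 made up 33.4%, 55.4% and 39.7% of the summed level per kilobase in the Stra8-deficient libraries, against 8.21%, 7.65% and 17.7% in the wild-type libraries, and Mycn most of the remainder. Within the Mxd class, Mxd1 held 9.75% to 14.9% of the sum in the Stra8-deficient libraries, against 43.3% to 46.4% of it in wild type, and Mxd3 13.9% to 31.1% against 1.48% to 1.68%. Per unit of Max, the other 9 genes summed to 6.74, 4.77 and 4.03 in the Stra8-deficient libraries, against 13.7, 14.5 and 13.0 in the wild-type libraries.

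**Figure D3:**
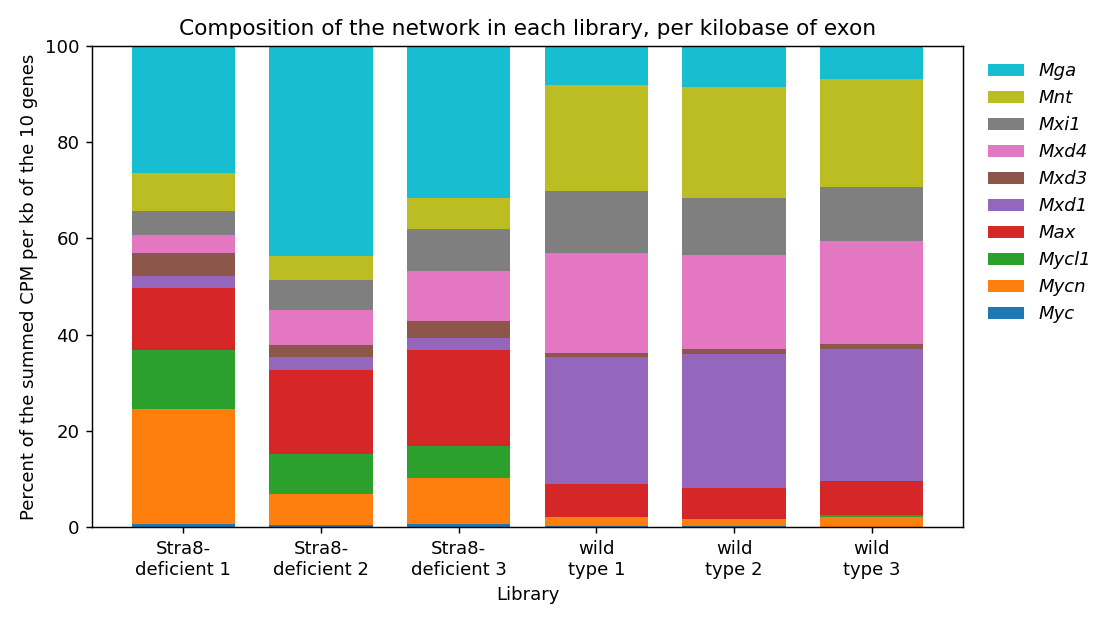
Share of each network gene in the summed CPM per kb of the 10 genes, in percent, with the 3 Stra8-deficient libraries left of the 3 wild-type libraries. Mga holds 26.3% to 43.6% of the Stra8-deficient sums and 6.88% to 8.43% of the wild-type sums, and Mxd1 2.37% to 2.66% against 26.3% to 27.9%.

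The Stra8-deficient testes differed among themselves more than the wild-type testes for most members. The ratio of the highest to the lowest Stra8-deficient library was 3.26 for Mycn, 2.75 for Mxd4, 1.91 for Mycl1 and 1.90 for Mga, and 1.30 to 1.69 for the other 6. In wild type it was 1.05 to 1.17 for the 7 members other than Myc, Mycn and Mycl1, whose ratios were 5.39, 1.70 and 3.57. Over all genes the biological coefficient of variation was 38.1% among mutant and 7.41% among wild-type testes, and the fit shares 1 estimate between them. The first Stra8-deficient library, highest in Mycn, Mycl1, Mxd3 and Mnt and lowest in Max, Mxd4, Mxi1 and Mga, had a spermatogonial marker sum of 4176 CPM against 2976 and 3965 CPM in the other 2.

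The 5 genes nearest to Mycn in pattern were Hsd17b14, a steroid dehydrogenase gene, the transcription factor gene Mafa, the de novo DNA methyltransferase gene Dnmt3b, the casein kinase gene Csnk1e and the F-box gene Fbxo31. Nearness was the root mean square distance of log2 CPM, centred per gene, over the 6 libraries among 15010 genes of average log2 CPM of at least 0, and it was 0.17 to 0.22. In each the first Stra8-deficient library was highest, as for Mycn, which the choice of genes favours, so it is no separate result. Hsd17b14 had only 2, 2 and 3 reads in the wild-type libraries, and Mafa 3, 2 and 3. Dnmt3b had 140, 57.1 and 64.0 CPM in the Stra8-deficient libraries, against 9.06, 8.75 and 10.1 CPM in the wild-type libraries. All 5 genes also differ between genotypes (log2 fold changes of 3.01 to 3.70), so the likeness includes that difference. The log2 fold change of Hsd17b14 was 3.44, or 2.81 with the first Stra8-deficient library left out, and that of Fbxo31 3.05, or 2.46 with it left out. These lower values also follow the choice of genes by likeness to Mycn.

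The parallel Mlx branch, in which Mlx takes the place of Max and pairs with the glucose-responsive factors encoded by Mlxip (MondoA) and Mlxipl (ChREBP), was read in all libraries. Mlx had 40.9, 53.3 and 37.6 CPM in the Stra8-deficient libraries, against 11.2, 10.3 and 11.4 CPM in the wild-type libraries, and was called higher (2.00 ± 0.22, edgeR, adjusted p = 3.03e-05). Mlxipl was lower (-1.47 ± 0.26, edgeR, adjusted p = 0.000746). Mlxip was called higher at 0.42 ± 0.16 (edgeR, adjusted p = 0.0414), but not with RLE factors (0.31), in DESeq2 (0.31), with the replicate block (0.42), or without the first (0.36) or second Stra8-deficient library (0.32) or any 1 wild-type library (0.36 to 0.45).

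Of 9 other E-box-binding factors of the same helix-loop-helix zipper type, 5 had a symbol shared by all 6 libraries, and all 5 were called higher, beside 39.0% of all tested genes. On the log2 scale Usf1, a broadly expressed activator, rose by 2.52 ± 0.23 and its paralog Usf2 by 1.16 ± 0.22. Mitf, the pigment cell factor, rose by 2.31 ± 0.37. The lipid synthesis regulators Srebf1 and Srebf2 rose by 1.91 ± 0.31 and 2.60 ± 0.38, and Srebf2 by 1.97 with the first Stra8-deficient library left out. The other 4, Tfe3, Tfeb, Tfec and Tfap4, go by older symbols in 5 of the 6 libraries and were not tested.

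Among 12 genes that encode partners of Mga in its variant Polycomb complex, 7 were higher, 2 lower and 3 not called, with a median log2 fold change of 1.20 beside 0.11 over all tested genes. With 39.0% of all genes higher and 36.7% lower, the share called was close to the background of 75.8%. E2f6 encodes a DNA-binding partner in this complex. It had 78.9, 87.2 and 91.0 CPM in the Stra8-deficient libraries, against 4.37, 4.66 and 5.14 CPM in the wild-type libraries. It rose by 4.18 ± 0.20 (edgeR, adjusted p = 1.73e-07), the largest change of the list. Pcgf6, the Polycomb ring finger subunit that marks this complex, was lower, with 35.8, 44.0 and 28.4 CPM in the Stra8-deficient libraries, against 85.6, 91.8 and 68.4 CPM in the wild-type libraries (log2 fold change -1.18 ± 0.22, edgeR, adjusted p = 0.00084). L3mbtl2, another defining subunit, was not called (-0.44 ± 0.20, edgeR, adjusted p = 0.069), and was called lower with RLE factors (-0.55), in DESeq2 (-0.55) and without the first Stra8-deficient library (-0.68), while its sign turned with library size alone (0.18). Of the ubiquitin ligase subunits, Ring1 was lower (-1.43 ± 0.22) and Rnf2 higher (0.57 ± 0.17), a call that was lost without any 1 wild-type library (0.53 to 0.58). The adaptor gene Yaf2 (2.02 ± 0.28), Wdr5 (1.85 ± 0.18) and the histone deacetylase gene Hdac2 (2.19 ± 0.17) were higher. Hdac1, read at only 5.49 to 6.32 CPM (Stra8-deficient) against 5.50 to 8.05 CPM (wild type), and Cbx3 have many near-identical copies in the mouse genome, so their counts are uncertain.

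The Sin3 corepressor, through which Mxd proteins and Mnt repress, had 6 of its 16 genes called higher (37.5%), 4 lower (25%, or 2 genes without the third wild-type library) and 6 not called. Beside the 39.0% higher and 36.7% lower of all tested genes, the share called higher was near the background. With library size alone, 8 were higher and 1 lower. The scaffold gene Sin3a rose by 1.22 ± 0.17 (edgeR, adjusted p = 0.000152). Its paralog Sin3b was lower at -0.48 ± 0.19 (edgeR, adjusted p = 0.0401), a call that did not hold with upper-quartile factors (-0.21), without the low-count filter (-0.46), with the replicate block (-0.50) or without any 1 wild-type library (-0.47 to -0.53), and whose sign turned with library size alone (0.14). Kdm5a, a histone demethylase gene, rose by 2.17 ± 0.19. Brms1 was lower (-1.90 ± 0.16), as was the corepressor gene Ncor1 (-1.01 ± 0.19), whose call was lost with library size alone (-0.40).

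Of 18 genes of Myc's coactivators and cofactors 5 were higher (27.8%), 4 lower (22.2%) and 9 not called, beside 39.0% higher and 36.7% lower of all tested genes. The higher ones numbered 3 without the second or without the third wild-type library, and library size alone gave 12 higher and 1 lower. The ATPase gene Ruvbl1 rose by 2.74 ± 0.46 from few reads, and the elongation kinase gene Cdk9 by 1.13 ± 0.19. Ruvbl2, with more reads than Ruvbl1, was lower (-1.08 ± 0.18, edgeR, adjusted p = 0.000572). Ep400, a chromatin remodeller of the same coactivator complex, was lower (-1.37 ± 0.20, edgeR, adjusted p = 0.000214). Of 18 genes that set the stability of Myc proteins, 10 were higher (55.6%), 7 lower (38.9%) and 1 was not called, beside the same 39.0% and 36.7%. Library size alone gave 11 higher and 3 lower, and leaving out 1 library gave 5 to 6 lower. The deubiquitinase genes Usp36 (2.78 ± 0.29) and Usp28 (2.63 ± 0.22) rose most. The 1 gene not called also encodes a deubiquitinase, and ubiquitin ligase genes of the list were called in both directions. Protein stability was not measured. The kinase genes Plk1 (-1.95 ± 0.24) and Aurka (-1.08 ± 0.17) were lower. The median log2 fold change was 0.07 for the coactivators and 0.82 for the stability genes, beside 0.11 over all tested genes.

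**Figure D4:**
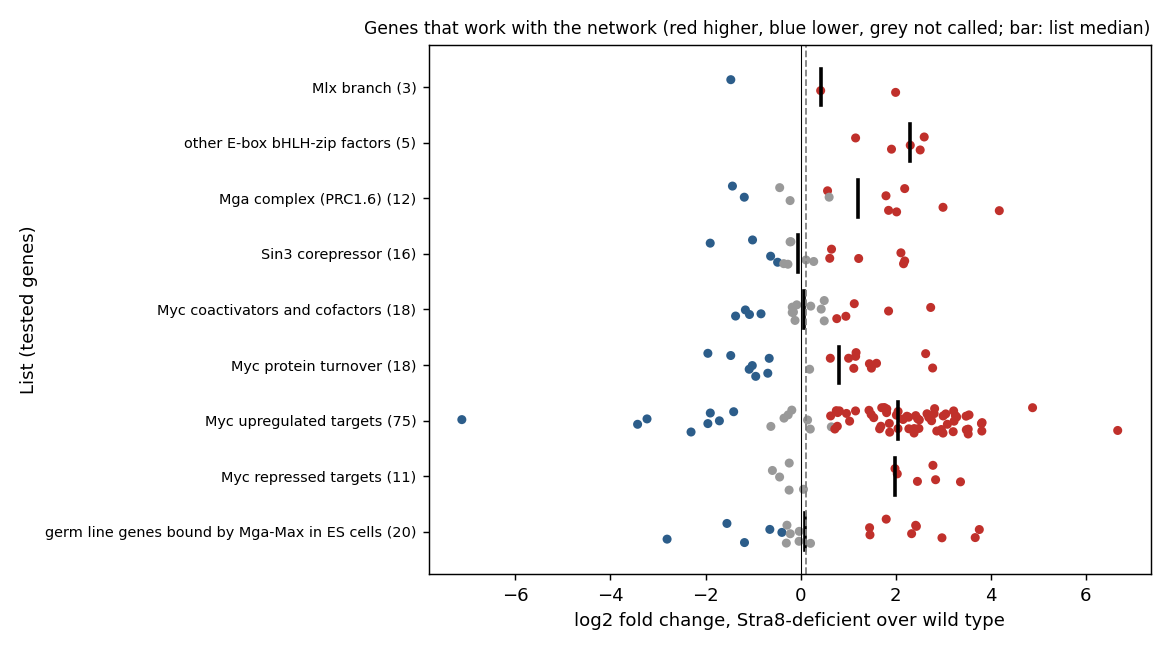
Log2 fold change, Stra8-deficient over wild type, of tested genes in 9 lists of partners, cofactors and targets, with the list median as a bar and the median of all tested genes (0.11) as a dashed line. The Myc upregulated targets lie for the most part above 0 with a median of 2.05.

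Most of the listed genes that Myc is known to activate were higher. The list was chosen with earlier results of these data known and carries no set test. Of 75 tested genes 60 (80.0%) were higher, 8 (10.7%) lower and 7 not called, beside 39.0% higher and 36.7% lower of all tested genes, and the median log2 fold change was 2.05 beside 0.11. Many of them serve ribosome production and the cell cycle, which other factors drive as well, and the part of the higher spermatogonial markers (2976 to 4176 against 207 to 245 CPM) in this count was not tested. Ccnd2, which encodes a D-type cyclin, rose most, by 6.67 ± 0.29 (edgeR, adjusted p = 9.23e-08). Dctpp1, a nucleotide pool enzyme, had 170, 154 and 298 CPM in the Stra8-deficient libraries, against 8.74, 6.92 and 5.32 CPM in the wild-type libraries (log2 fold change 4.88 ± 0.34, edgeR, adjusted p = 1.59e-06). Rcl1, which acts in ribosomal RNA processing, rose by 3.82 ± 0.20. The metabolic genes Sord, for sorbitol dehydrogenase (-7.13 ± 0.24), and Ldha, for lactate dehydrogenase (-3.23 ± 0.30), and the exosome gene Exosc5 (-3.43 ± 0.39) had the lowest log2 fold changes. Ldha too has many near-identical copies, as has Cbx3, which is counted here among the higher genes, so both values are uncertain. The other genes of the list were not checked for such copies.

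Of 11 genes that Myc is known to repress, 6 were called higher (54.5%, beside 39.0% of all tested genes) and 5 were not called, with a median log2 fold change of 1.99. The number called lower was 0 in edgeR's test and in DESeq2, 0 at an unadjusted p under 0.05, and 1 without the first or without the second Stra8-deficient library. The cell cycle inhibitor gene Cdkn1c had 394, 81.1 and 229 CPM in the Stra8-deficient libraries, against 24.0, 23.0 and 21.3 CPM in the wild-type libraries, and rose by 3.36 ± 0.52 (edgeR, adjusted p = 0.000389), or 2.73 without the first Stra8-deficient library. Cebpa, a differentiation factor gene, rose by 2.84 ± 0.23.

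Of 20 germ line genes at which Mga and Max act in mouse ES cells, 9 were higher (45%) and 5 lower (25%), with a median log2 fold change of 0.09. All tested genes were close to this, with 39.0% higher, 36.7% lower and a median of 0.11. Library size alone gave 12 higher and 3 lower, and leaving out 1 library gave 4 to 7 lower. Taf7l, a germ cell paralog of a general transcription factor subunit, had 606, 677 and 618 CPM in the Stra8-deficient libraries, against 47.6, 45.2 and 47.5 CPM in the wild-type libraries (log2 fold change 3.76 ± 0.17, edgeR, adjusted p = 1.43e-07). Sohlh2, a helix-loop-helix factor of spermatogonia, rose by 3.67 ± 0.18. Meioc, which meiotic prophase needs and which is listed as Gm1564, had 22.0, 33.9 and 31.4 CPM in the Stra8-deficient libraries, against 195, 213 and 204 CPM in the wild-type libraries (log2 fold change -2.81 ± 0.21, edgeR, adjusted p = 2.38e-06). Ddx4, a germ cell helicase gene, was lower (-1.55 ± 0.19), and Stra8 was not called (0.21 ± 0.21, edgeR, adjusted p = 0.384). With library size alone Stra8 was called higher (0.83, edgeR, adjusted p = 0.00568).

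The E-box CACGTG was in the promoter window of 11 of these 20 germ line genes (55%) and of 20 of the 68 Myc upregulated targets with a window (29.4%), beside 8.09% of all genes. Both lists hold genes known for binding by factors of this network. Of the 11 germ line genes with the E-box 4 were higher and 3 lower, and of the 9 without it 5 were higher and 2 lower. Of the 20 Myc targets with the E-box 16 were higher and 3 lower. Of the 48 without it 36 were higher, 5 lower and 1 was not tested. Beside these, 39.0% of all tested genes were higher and 36.7% lower.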

How the data were processed

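Messenger RNA of 6 whole testes was measured. TopHat, HTSeq, edgeR and the mm9 build are named in the submitters' processing notes. Neither versions and settings nor strand handling and annotation are given in the sources used here. For each library the authors deposited raw counts, whole reads per gene symbol. A further deposited table, of their own genotype comparison, holds log2 ratios and nominal and corrected p-values.

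Comparisons used the 21786 symbols listed for all 6 libraries (99.3% to 99.7% of gene reads). The third Stra8-deficient library lists 23285 symbols, the others 22055, and some genes carry newer symbols there. Reads not counted to a gene (20.9% to 34.5%) were left out. Genes passing filterByExpr (15018) were compared with edgeR's quasi-likelihood test (edgeR 4.0.16, R 4.3.3), with TMM factors of 0.796 to 1.27, robust estimation, genotype as the only term and Benjamini-Hochberg adjustment. SEs were obtained as log2 fold change over the root of the F statistic. Alternatives were RLE, upper-quartile and no factors, no filter, DESeq2 1.42.0, a replicate block and leaving out each library. Log2 CPM used a prior count of 2. Exon lengths are the union of coding transcripts in GENCODE M21. Poisson intervals cover counting error only.

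The members, lists and tests were chosen with earlier results of these data known. Beside the members, Stra8 and the 5 genes nearest to Mycn, any gene could be named of the Mlx branch, other E-box factors, Mga complex and Sin3 lists, and of each other list the 3 called genes changed most each way, with a mean log2 CPM of 0 or more. List genes were matched through older symbols where needed. Lists are described by counts, with no set test.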

Additional observations from a re-analysis of the deposited data

How the results depend on the processing

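Over the 12 alternatives, 651 of 684 log2 fold changes of 57 named genes kept their direction and side of the threshold, 23 lost a call, 6 gained one and 4 turned sign. These 4 were Sin3b (0.14), L3mbtl2 (0.18) and Hdac1 (0.40) with library size alone and Hdac1 with upper-quartile factors (0.055), none of them called there. Mycn, Mycl1, Max, Mxd3 and Mga stayed called higher, and Mxd1 and Mnt lower, under all 12. For the scalings that follow, only counts that moved by a ratio above 1.5 are listed. With library size alone the counts became 2 network members lower, 1 Sin3 gene lower, 12 coactivators higher and 1 lower, 3 stability genes lower and 3 germ line genes lower. With upper-quartile factors they became 2 Sin3 genes lower, 8 coactivators higher, 4 stability genes lower and 3 germ line genes lower. Leaving out 1 library gave 3 to 4 network members lower and 2 to 4 Sin3 genes lower. It gave 3 to 7 coactivators higher and 0 to 1 repressed Myc targets lower. It also gave 5 to 6 stability genes lower, against 7 with all libraries, and 4 to 7 germ line genes lower, against 5. The cause was not tested.

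Same-numbered libraries of the genotypes deviated together with correlations of 0.058, 0.080 and -0.040, and not every library correlated best with its own number. With so few libraries these values cannot exclude a pairing, and the main test used none. The replicate block gave 11218 calls over all genes against 11379, and 5 network members higher and 4 lower, as without it. The counts limit Myc (14 wild-type reads), Mycl1 (20) and Mxd3 (29).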
